A study of Mus musculus with 12 samples.

Results

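The 9 genes described here, Adgre1, Timd4, Icam2, Vsig4, Cd5l, Selp, Lbp, Fcna and Garnl3, mark large peritoneal macrophages, which are the main resident macrophage population of the mouse peritoneum. They were taken by symbol from a count table of 55401 genes, in which each symbol belonged to 1 gene. All 9 passed the filter on low counts, as did 16915 genes in all. Cells were washed from the cavity of C57BL/6J mice and their RNA was sequenced in bulk, with 4 libraries in each of 3 groups. The ID8 group had received the ovarian cancer line labelled ID8 (defb29/Vegf-a) into the peritoneal cavity, and the ID8-FSHR group the line labelled ID8 (defb29/Vegf-a) FSHR, which adds the follicle-stimulating hormone receptor. The third group was not injected. Lavage with 8 mL of saline was done on day 7 after injection. The series text gives 4000000 injected cells and the sample protocol 5000000, and the sources used here do not reconcile them. No group was injected with vehicle alone, so an effect of the injection and an effect of the tumour cells cannot be told apart. Each lavage of an injected mouse was sequenced as a mixture of tumour cells and host cells, while the uninjected lavages are labelled as endogenous cells. The labels nonetheless enter the cell type as a cell line, and they give no age, no sex and no pooling of mice. The sources used here do not say whether either line is a single clone.

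Large peritoneal macrophages are largely seeded before birth and maintain themselves in the cavity, where they take up dying cells and bacteria. Their identity depends on the transcription factor GATA6, which is switched on by retinoic acid made in the omentum and other tissues lining the cavity. After inflammation they can adhere to the cavity wall and to the omentum and so become scarce in lavage, while macrophages derived from blood monocytes enter. The 9 markers fall into 4 roles. Adgre1 (the F4/80 antigen), Icam2 and Selp (P-selectin) encode surface and adhesion proteins. Timd4 and Vsig4 encode receptors for uptake, TIM-4 for phosphatidylserine on dying cells and the complement receptor CRIg for particles coated with C3b. Cd5l (the apoptosis inhibitor AIM), Lbp (lipopolysaccharide-binding protein) and Fcna (ficolin A, which starts the lectin pathway of complement) encode secreted proteins. Garnl3 encodes a protein named for a domain like that of Rap GTPase activators.

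The genes lie on 6 chromosomes of the mouse build GRCm38. Adgre1 is on chromosome 17 (57358691 to 57483527, plus strand, 22 merged exons), Vsig4 on chromosome X (96247203 to 96293438, minus strand, 7 exons), Cd5l on chromosome 3 (87357881 to 87371073, plus strand, 6 exons) and Selp on chromosome 1 (164115264 to 164150026, plus strand, 17 exons). Timd4 (46810800 to 46844332, plus strand, 9 exons) and Icam2 (106377656 to 106388075, minus strand, 7 exons) share chromosome 11. Chromosome 2 holds Lbp (158306493 to 158332852, plus strand, 15 exons), Fcna (25624666 to 25628030, minus strand, 10 exons) and Garnl3 (32986224 to 33131654, minus strand, 34 exons). Antisense genes overlap 14.14% of the exon bases of Selp (Gm16548 and Gm16587) and 6.55% of those of Fcna (Fcnaos). The sources used here do not say whether reads were counted by strand, so a small part of the Selp and Fcna counts may come from those genes. The other 7 markers had no overlapping exons in the annotation.

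Promoter entries of RefSeq (GRCm38.p6) matched 6 of the 9 markers. The 250 bases before the start are shown for the 2 markers whose patterns over the 12 libraries were farthest apart, Vsig4 and Cd5l, each read 5′ to 3′ on the strand of the gene. Capitals mark 2 kinds of word, searched on both strands. The GATA words were AGATAA with its variant AGATAG, besides TGATAA with its variant TGATAG. The ETS word, of the kind bound by the macrophage factor PU.1, was GAGGAA. A word on the opposite strand appears as its reverse complement, and no 2 matches shown here overlap.
Vsig4, chrX:96293439-96293688, minus strand: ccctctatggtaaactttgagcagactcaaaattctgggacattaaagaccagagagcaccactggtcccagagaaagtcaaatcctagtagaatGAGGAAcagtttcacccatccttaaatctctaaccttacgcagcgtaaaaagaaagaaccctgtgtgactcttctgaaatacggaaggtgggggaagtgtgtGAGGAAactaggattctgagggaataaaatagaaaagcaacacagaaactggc
Cd5l, chr3:87357631-87357880, plus strand: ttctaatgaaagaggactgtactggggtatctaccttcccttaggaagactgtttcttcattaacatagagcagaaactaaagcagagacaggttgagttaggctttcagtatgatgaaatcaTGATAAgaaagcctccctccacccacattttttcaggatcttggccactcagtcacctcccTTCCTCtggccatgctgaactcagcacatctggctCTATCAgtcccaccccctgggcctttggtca
The Vsig4 window held the ETS word at 155 and at 53 bases before the start and no GATA word. The Cd5l window held TGATAA at 127 bases before the start, TGATAG on the opposite strand at 31 bases, and the ETS word on the opposite strand at 66 bases. Of 32851 promoter windows of the same length, 26.5% held a GATA word and 23.3% the ETS word, so neither word is rare. The Timd4, Selp and Garnl3 windows held neither word, and the Fcna window held the ETS word 3 times. These matches describe the letters alone.

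Total counts ran from 50327658 to 57991979 in uninjected libraries, from 47419608 to 64333677 in ID8 libraries and from 48355885 to 57636459 in ID8-FSHR libraries. Defb29 had no counts in uninjected libraries, 20.8 to 29.1 CPM (counts scaled to the effective library size) with ID8 and 8.41 to 23.8 CPM with ID8-FSHR. Fshr had at most 2 counts in an ID8 library and at most 7 in an ID8-FSHR library, so it does not check that label. ID8-FSHR replicate 2 stood apart from the other tumour libraries, at -24.8 on the first principal component (85.3% of the variance) against -68.7 to -60.7 for those and 116 to 121 for the uninjected libraries. Its 11 tumour and mesothelial genes summed to 986 CPM, against 2253 to 2531 CPM in the other ID8-FSHR libraries, 2865 to 3604 CPM with ID8 and 20.9 to 23.9 CPM without injection. Each marker result below that rests on the ID8-FSHR group is therefore also given without replicate 2 where that library moved a call. For the other gene lists this is given in part, mostly as counts, and the single genes whose call moved are not all named. The labels call the libraries of a group biological replicates.

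In every uninjected library all 9 markers were abundant, and the order of their levels per kilobase of exon showed 3 tiers. Adgre1 (mean 486 CPM per kilobase), Cd5l (456), Fcna (438) and Timd4 (368) came first, and each neighbour in that order overlapped the next over the 4 libraries. Vsig4 (231), Selp (199) and Icam2 (158) followed, with Timd4 and Vsig4 apart, Vsig4 and Selp overlapping, and Selp and Icam2 apart. Lbp (20.9) and Garnl3 (13.9) were lowest and did not overlap. In ID8 libraries Cd5l led the order at 335 CPM per kilobase, overlapping Adgre1 at 294. In ID8-FSHR libraries Cd5l was again first at 413 CPM per kilobase, overlapping Adgre1 at 360, and Vsig4 had dropped to the seventh place at 53.7, below Icam2 and Selp although overlapping Selp. Lbp and Garnl3 kept the last 2 places in all 3 groups.

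**Figure D1:**
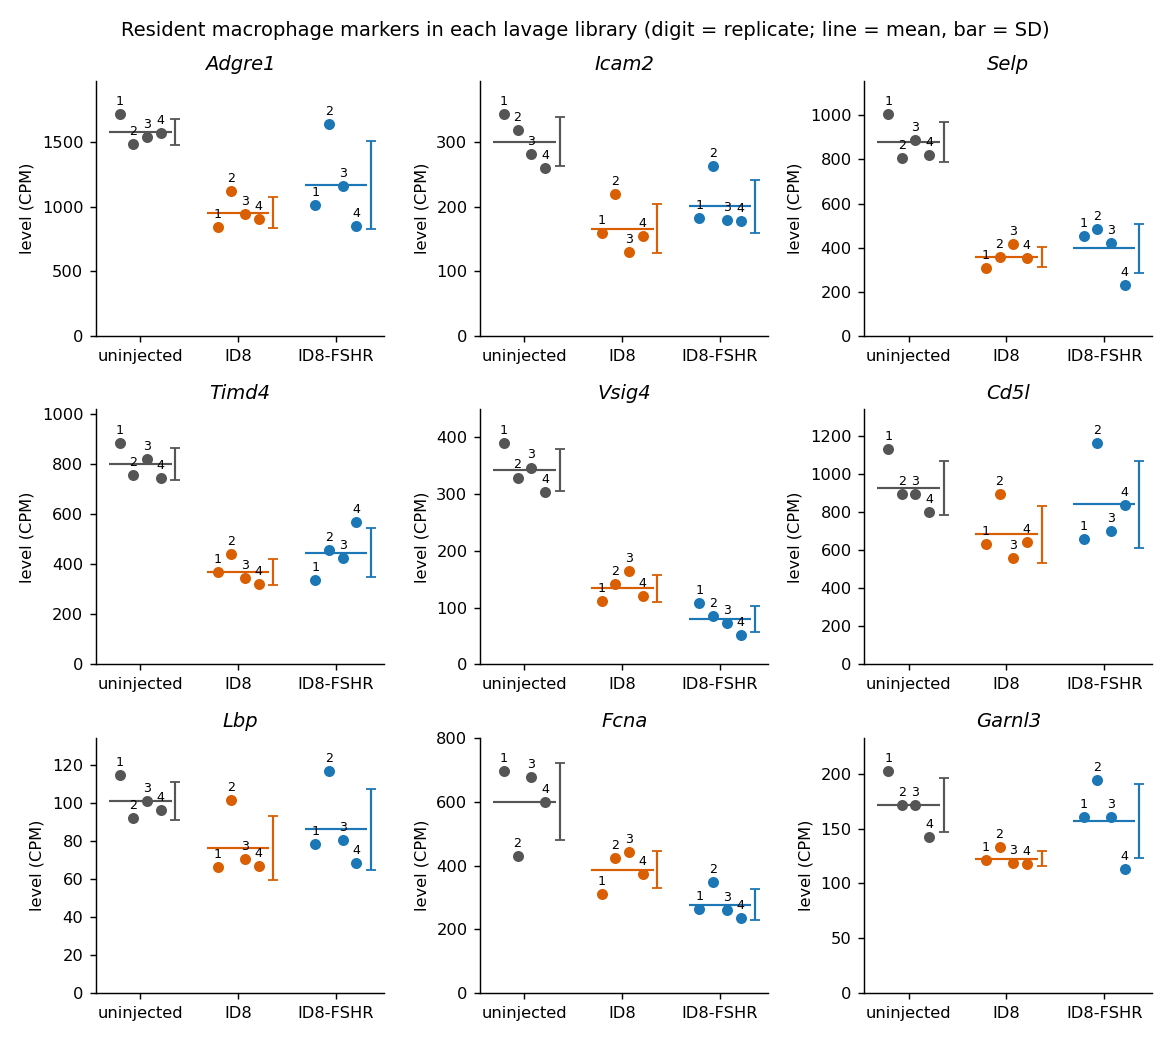
Level of each of the 9 markers in CPM (vertical axes, from 0) in the 12 lavage libraries, by group on the horizontal axis. Each point is a library labelled with its replicate number, the line is the group mean and the bar is 1 SD (n = 4). In CPM, Vsig4 lay between 304 and 391 in uninjected libraries, between 112 and 165 with ID8 and between 51.8 and 108 with ID8-FSHR, whereas the Cd5l ranges of the 3 groups overlapped.

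Mice with ID8 were first compared with uninjected mice, which asks what the resident macrophage signal of the lavage is 7 days after the line is placed in the cavity. In CPM, 7 of the 9 markers were lower with ID8 at an adjusted p under 0.05 in edgeR's quasi-likelihood test. None was higher, where 32.7% of all tested genes were. Scaled instead to the summed counts of 14 pan-macrophage genes, 5 markers were higher and none was lower. On that scale 12334 of the 16915 tested genes were higher and 787 lower, with a median log2 fold change of 1.09. In CPM, 31.4% of all tested genes were lower and 64.1% differed in either direction, so a call was common among genes of any kind. The median log2 fold change of the 9 markers in CPM was -0.72, against -0.03 over all tested genes. In 6 of 9 markers every ID8 library lay below every uninjected library, which held for 30.7% of all tested genes. In these bulk samples, fewer macrophages and less of each transcript per macrophage cannot be told apart.

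The surface and adhesion markers Adgre1, Icam2 and Selp were lower in CPM with ID8, although Adgre1 (0.39) and Icam2 (0.26) turned positive on the log2 scale when scaled to the summed pan-macrophage genes. Adgre1 stood at 1714, 1484, 1536 and 1567 CPM in the uninjected libraries and at 843, 1124, 947 and 901 CPM in the ID8 libraries. The 2 groups were apart, and ID8 replicate 2 was the highest of its group. The Adgre1 level was 1.65-fold lower with ID8 (log2 fold change -0.72, SE 0.17, edgeR adjusted p = 0.00195). Icam2, an adhesion molecule used to separate large from small peritoneal macrophages, stood at 343, 319, 281 and 259.5 CPM without injection and at 159.8, 219, 130.03 and 155 CPM with ID8. Its groups were also apart (log2 fold change -0.86, SE 0.17, edgeR adjusted p = 0.000559). Selp stood at 1004, 805, 888 and 820.4 CPM without injection and at 308, 357, 415 and 351 CPM with ID8. The highest ID8 library lay far below the lowest uninjected one, and the log2 fold change was -1.30 (SE 0.19, edgeR adjusted p = 4.68e-05). Selp is also made by platelets and endothelium, and Icam2 by endothelium. The platelet gene Gp1bb had 0 counts in all 12 libraries and Gp9 at most 2 counts. The endothelial gene Emcn had at most 4 counts, Sele at most 10 and Cdh5 at most 35. The 8 platelet genes summed to 297 to 397 CPM without injection, nearly all of it Pf4 (mean 328 CPM), which macrophages can also make. The 9 endothelial genes summed to 87.2 to 116 CPM without injection, nearly all of it Pecam1 (mean 98.6 CPM), and to 41.02 to 48.1 CPM with ID8. Both leading genes fell with ID8, Pf4 to 93.9 CPM (log2 fold change -1.81, adjusted p = 3.63e-05) and Pecam1 to 23.1 CPM (-2.09, adjusted p = 1.22e-07). Robo4 (0.0296 to 19.9 CPM) and Itga2b (2.99 to 6.26 CPM) rose, and Cdh5 and Gp1ba did not pass the test. Near the threshold, Vwf fell in CPM (1.31 to 0.651, adjusted p = 0.0369), but stood at 0.11 on the summed pan-macrophage genes, and Kdr rose (0.338 to 0.877 CPM, adjusted p = 0.0266). The Vwf call was lost without any 1 of uninjected replicates 1 or 3, the 4 ID8 libraries or ID8-FSHR replicate 2 (adjusted p up to 0.127). The Kdr call was lost without uninjected replicate 1, 2 or 4 or ID8 replicate 2 or 4 (up to 0.0665). Their part in the Selp and Icam2 differences was not tested.

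Both uptake receptors were lower with ID8 by more than 1 on the log2 scale. Timd4 stood at 884, 754, 818 and 743 CPM without injection and at 367, 442, 344 and 321 CPM with ID8. The highest ID8 library was below the lowest uninjected one by a wide margin. The log2 fold change of Timd4 was -1.12 (SE 0.15, edgeR adjusted p = 1.94e-05). Vsig4 stood at 391, 329, 347 and 304 CPM without injection and at 112, 141, 165 and 120.1 CPM with ID8. Again the groups were apart, and Vsig4 had the largest fitted difference of the 9 markers in this comparison, 2.55-fold lower (log2 fold change -1.35, SE 0.19, edgeR adjusted p = 3.82e-05).

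The secreted markers and Garnl3 differed less. Fcna stood at 697, 431, 679 and 599.5 CPM without injection and at 311, 423, 442 and 374 CPM with ID8. The lowest uninjected library lay inside the ID8 range, and the log2 fold change was -0.64 (SE 0.16, edgeR adjusted p = 0.00428). Garnl3 stood at 203, 171, 172 and 142 CPM without injection and at 121, 133, 119 and 118 CPM with ID8, which did not overlap (log2 fold change -0.49, SE 0.14, edgeR adjusted p = 0.00887). Cd5l stood at 1130.1, 892, 893 and 798 CPM without injection and at 632, 897, 557 and 642 CPM with ID8. ID8 replicate 2 lay among the uninjected libraries, and the test missed the threshold (log2 fold change -0.44, 95% interval -0.85 to -0.04, edgeR adjusted p = 0.0548). Lbp stood at 115, 91.8, 101 and 96.1 CPM without injection and at 66.2, 101, 70.4 and 66.7 CPM with ID8. The same ID8 library lay inside the uninjected range, and the test missed the threshold narrowly (log2 fold change -0.41, 95% interval -0.77 to -0.04, edgeR adjusted p = 0.0504). Without ID8 replicate 2, both passed it (edgeR adjusted p = 0.0135 for Cd5l and 0.00636 for Lbp).

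**Figure D2:**
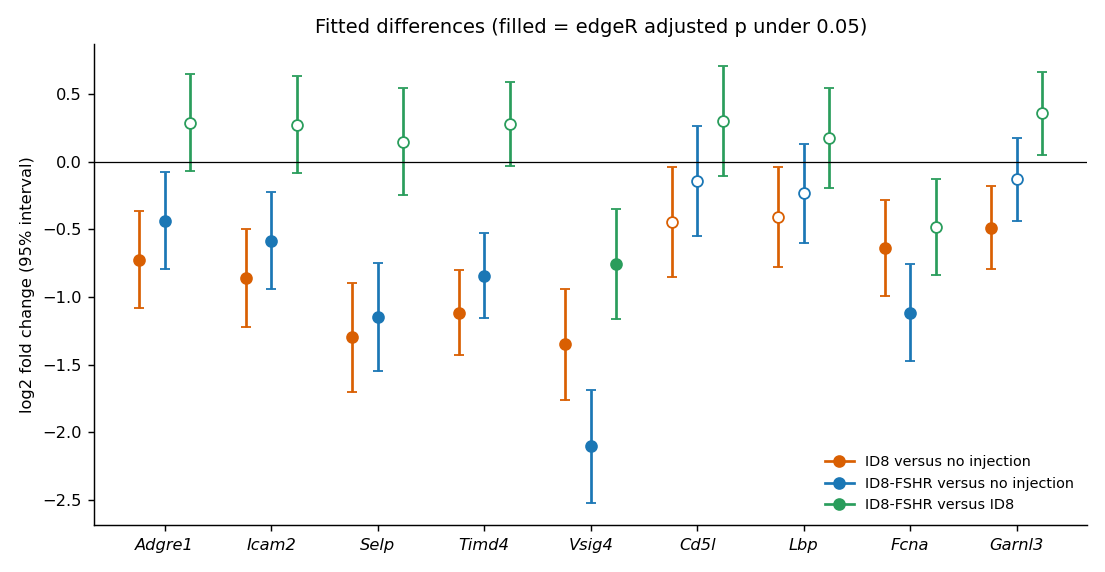
Fitted log2 fold change of each marker (vertical axis, with its 95% interval) in the 3 comparisons, on CPM scaled by effective library size. Filled points have an edgeR adjusted p under 0.05. Vsig4 is filled in all 3 comparisons, at -1.35, -2.10 and -0.76, while Cd5l and Lbp are open in all 3. The directions hold for this scaling and many change when counts are scaled to pan-macrophage genes.

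With ID8-FSHR against no injection, 6 of 9 markers were lower in CPM and none was higher, where 33.9% of all tested genes were. Scaled to the summed pan-macrophage genes, 7 were higher and 1, Vsig4, was lower. On that scale 13686 of the 16915 tested genes were higher and 568 lower, with a median log2 fold change of 1.44. In CPM, 30.6% of all tested genes were lower and 64.5% differed in either direction. The median log2 fold change of the markers in CPM was -0.58, against 0.00 over all tested genes. In 4 markers, Timd4, Vsig4, Selp and Fcna, the groups did not overlap, where 27.4% of all tested genes lay apart in that direction. Without ID8-FSHR replicate 2 the count of lower markers was also 6. The spread between ID8-FSHR libraries was wide, with SDs from 17.5% to 29.3% of the mean, against 6.27% to 20.2% without injection. This comparison uses the same 4 uninjected libraries as the one with ID8.

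Vsig4 showed the largest fitted difference of the 9. It stood at 108, 85.6, 73.7 and 51.8 CPM in the ID8-FSHR libraries, so that the highest of them was below 112 CPM, the lowest ID8 library. Against no injection Vsig4 was 4.30-fold lower (log2 fold change -2.10, SE 0.19, edgeR adjusted p = 8.53e-07). Timd4 stood at 335, 458, 424.5 and 569 CPM with ID8-FSHR, all below the uninjected libraries (log2 fold change -0.84, SE 0.14, edgeR adjusted p = 0.000213). Replicate 4 was the highest of these for Timd4 and the lowest of its group for Vsig4.

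The surface markers of the ID8-FSHR group divided. Selp stood at 452, 483, 419.7 and 233 CPM, all below the uninjected libraries, with replicate 4 lowest (log2 fold change -1.15, SE 0.19, edgeR adjusted p = 0.00013). Adgre1 stood at 1015, 1637, 1158 and 849 CPM, and replicate 2 lay inside the uninjected range. The Adgre1 test passed the threshold (log2 fold change -0.44, SE 0.17, edgeR adjusted p = 0.0345), but the call was lost when any 1 of uninjected replicates 1, 3 or 4 or ID8-FSHR replicates 1, 3 or 4 was left out (highest adjusted p = 0.1003). Without ID8-FSHR replicate 2 the Adgre1 log2 fold change was -0.55, with an adjusted p of 0.000866. Icam2 stood at 183, 263, 179.6 and 178 CPM. Replicate 2 again lay within the uninjected range, and the log2 fold change was -0.58 (SE 0.17, edgeR adjusted p = 0.00772).

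Among the secreted markers, Fcna was lower with ID8-FSHR and the others did not pass the test. Fcna stood at 263, 348, 262 and 237 CPM, all below the uninjected libraries (log2 fold change -1.12, SE 0.17, edgeR adjusted p = 6.18e-05). Cd5l stood at 659.5, 1164, 703 and 836 CPM, and its highest library exceeded every uninjected one (log2 fold change -0.14, 95% interval -0.55 to 0.27, edgeR adjusted p = 0.524). Lbp stood at 78.4, 117, 80.4 and 68.6 CPM, with replicate 2 above every uninjected library (log2 fold change -0.23, 95% interval -0.60 to 0.14, edgeR adjusted p = 0.247). Garnl3 stood at 161, 195, 161 and 113 CPM, with 3 of 4 libraries inside the uninjected range (log2 fold change -0.13, 95% interval -0.43 to 0.18, edgeR adjusted p = 0.446). For these 3 genes the intervals take in log2 fold changes as low as -0.43 (Garnl3), -0.55 (Cd5l) and -0.60 (Lbp), so falls of up to that size are not excluded. In the library that stood apart, replicate 2, tumour and mesothelial genes were lowest of the tumour libraries, and Adgre1, Icam2, Selp, Cd5l, Lbp, Fcna and Garnl3 were each at their highest of the ID8-FSHR group. The part of tumour RNA in these marker levels was not tested.

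The comparison of ID8-FSHR with ID8 asks what differs in the lavage when the line carries the receptor. Vsig4 was the 1 marker of 9 that passed the test, lower with ID8-FSHR, where 5.56% of all tested genes were lower and 11.6% differed in either direction. Its groups were also apart, as were 10.8% of tested genes in that direction. The Vsig4 level was 1.69-fold lower (log2 fold change -0.76, SE 0.19, edgeR adjusted p = 0.0223). The call was lost without ID8 replicate 3 (adjusted p = 0.0764), without ID8-FSHR replicate 2 (0.0519) or without ID8-FSHR replicate 3 (0.0554), while the fitted difference lay between -0.93 and -0.59 over the 12 fits that left out 1 library each. Scaled to the summed pan-macrophage genes it was -0.45 (adjusted p = 0.0412), and with Lyz2 left out of that sum -0.78 (adjusted p = 0.0552).

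Fcna moved the same way as Vsig4 in its group means, 277.5 CPM with ID8-FSHR against 387 CPM with ID8, but missed the threshold (log2 fold change -0.48, 95% interval -0.84 to -0.13, edgeR adjusted p = 0.0756). Without ID8-FSHR replicate 2 the adjusted p for Fcna was 0.0387, so that without that library the 1 lower marker was Fcna and not Vsig4. The other 7 markers had higher means with ID8-FSHR than with ID8, and none passed the test, where 6.04% of all tested genes were higher. Their fitted differences ran from 0.15 for Selp to 0.36 for Garnl3. The Garnl3 interval (0.05 to 0.67) did not reach 0, although its adjusted p was 0.117, and without ID8-FSHR replicate 4 it was 0.0215. The intervals of the others reached from -0.25 (Selp) up to 0.71 (Cd5l), so differences within these limits are not excluded. The median over the 9 markers was 0.28, against -0.01 over all tested genes.

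Since the lavages hold different amounts of tumour RNA, the markers were also set against other macrophage transcripts. The 14 pan-macrophage genes summed to 25142 to 31963 CPM without injection, 11760 to 14340 CPM with ID8 and 8510.04 to 12079 CPM with ID8-FSHR. Lyz2, lysozyme, made up 38.2% to 72.5% of that sum in a library, and its mean level went from 20385 CPM without injection to 7843 with ID8 and 5050 with ID8-FSHR. Scaling to the sum without Lyz2, chosen after the share of Lyz2 was seen, moved the median log2 fold change of all tested genes to 0.58 in both comparisons with no injection, and raised the share of higher among called genes from 51.0% to 84.9% with ID8 and from 52.6% to 84.4% with ID8-FSHR. On that scale Vsig4, Selp and Timd4 were lower with ID8, at -0.74 (adjusted p = 0.00567), -0.69 (0.00329) and -0.52 (0.012), and the other 6 markers did not pass the test. With ID8-FSHR, Vsig4 (-1.52, adjusted p = 1.1e-05), Selp (-0.59, 0.00892) and Fcna (-0.56, 0.00297) were lower, while Cd5l (0.39, 0.0171), Lbp (0.31, 0.0492) and Garnl3 (0.42, 0.02) were higher. Scaling to the geometric mean of the 14 genes, also chosen after seeing the data, gave the same counts in both comparisons, 3 lower and 0 higher with ID8 and 3 lower and 3 higher with ID8-FSHR. With Lyz2 in the sum, the median of all tested genes moved to 1.09 with ID8 and 1.44 with ID8-FSHR, and 94.0% and 96.0% of called genes were higher. Vsig4 was lower with ID8-FSHR than without injection under all 4 of these scalings. With ID8 it was lower on effective library size, on the sum without Lyz2 and on the geometric mean, but its difference on the full sum was -0.24 (adjusted p = 0.149).

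**Figure D3:**
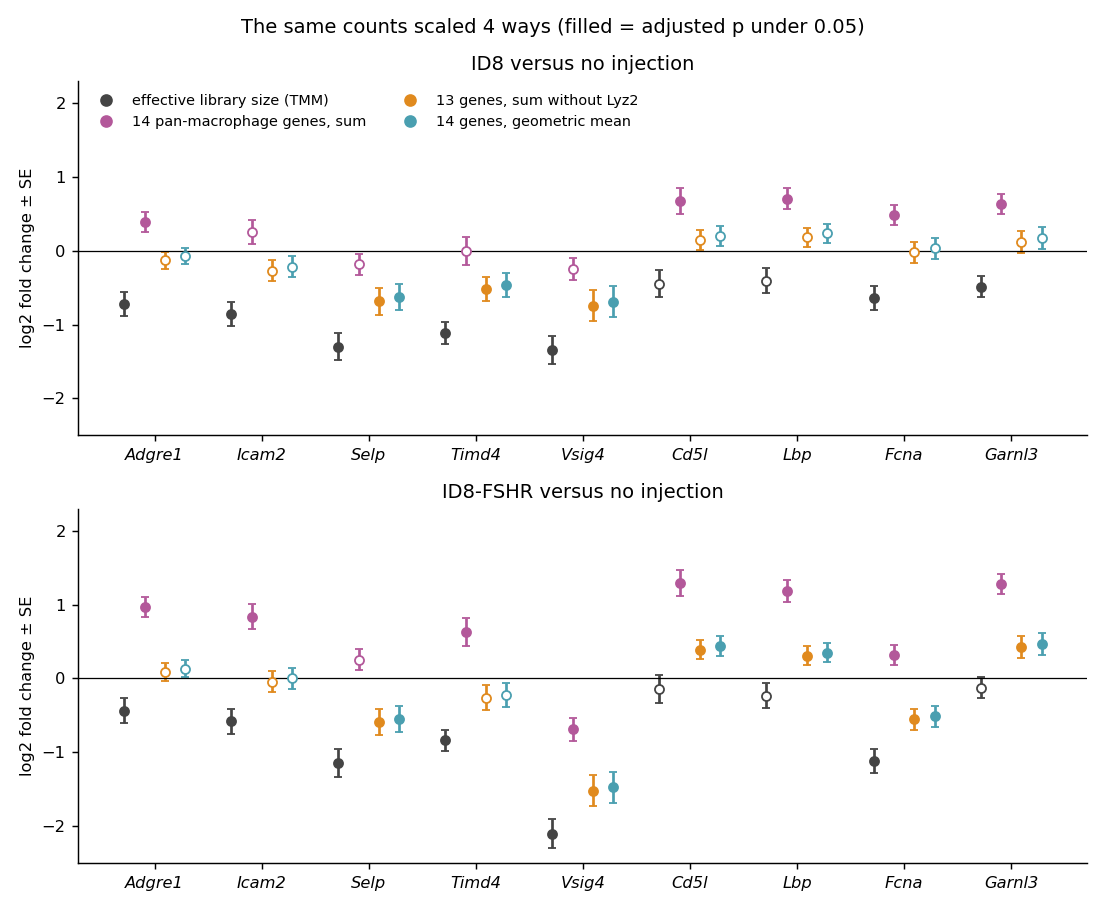
Log2 fold change of each marker with its SE (vertical axes) against no injection, in ID8 (top) and ID8-FSHR (bottom), when the same counts are scaled in 4 ways. Filled points have an adjusted p under 0.05. On the effective library size 7 and 6 markers are lower. On the pan-macrophage sum 5 and 7 are higher, as are 12334 and 13686 of the 16915 tested genes. The 2 scalings that give Lyz2 less weight lie between.

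Ratios within a library need no scaling, and were taken per 100 counts of Adgre1. Vsig4 stood at 22.8, 22.2, 22.6 and 19.4 without injection, at 13.3, 12.5, 17.5 and 13.3 with ID8 and at 10.6, 5.23, 6.36 and 6.10 with ID8-FSHR. All 3 groups were apart in this ratio, in the order uninjected, ID8 and ID8-FSHR. Selp ranged from 52.4 to 58.6 without injection, from 31.8 to 43.8 with ID8 and from 27.4 to 44.5 with ID8-FSHR, so both tumour groups lay below the uninjected one and overlapped each other. Timd4 ranged from 47.4 to 53.3 without injection and from 35.6 to 43.6 with ID8, which did not overlap. In 3 ID8-FSHR libraries the Timd4 ratio was 28.0 to 36.6, and in replicate 4 it was 67.0, the highest of the 12 libraries. Fcna ranged from 21.3 to 27.9 with ID8-FSHR, below both uninjected (29.0 to 44.2) and ID8 (36.9 to 46.6) libraries.

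The remaining markers kept or raised their ratio to Adgre1. Lbp ranged from 6.13 to 6.70 without injection, from 7.40 to 9.03 with ID8 and from 6.94 to 8.08 with ID8-FSHR, with both tumour groups above the uninjected one. Garnl3 ranged from 9.08 to 11.81 without injection, from 11.83 to 14.4 with ID8 and from 11.9 to 15.9 with ID8-FSHR. Icam2 overlapped between all groups, from 13.7 to 21.5 over the 12 libraries. Cd5l ranged from 50.9 to 65.9 without injection, from 58.9 to 79.8 with ID8 and from 60.7 to 98.5 with ID8-FSHR, where replicate 4 was again the highest. Per 100 counts of Timd4, Cd5l stood at 107 to 128 without injection, 162 to 203 with ID8 and 147 to 254 with ID8-FSHR. These ratios show that the markers changed unequally, and not which of them stayed the same.

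**Figure D4:**
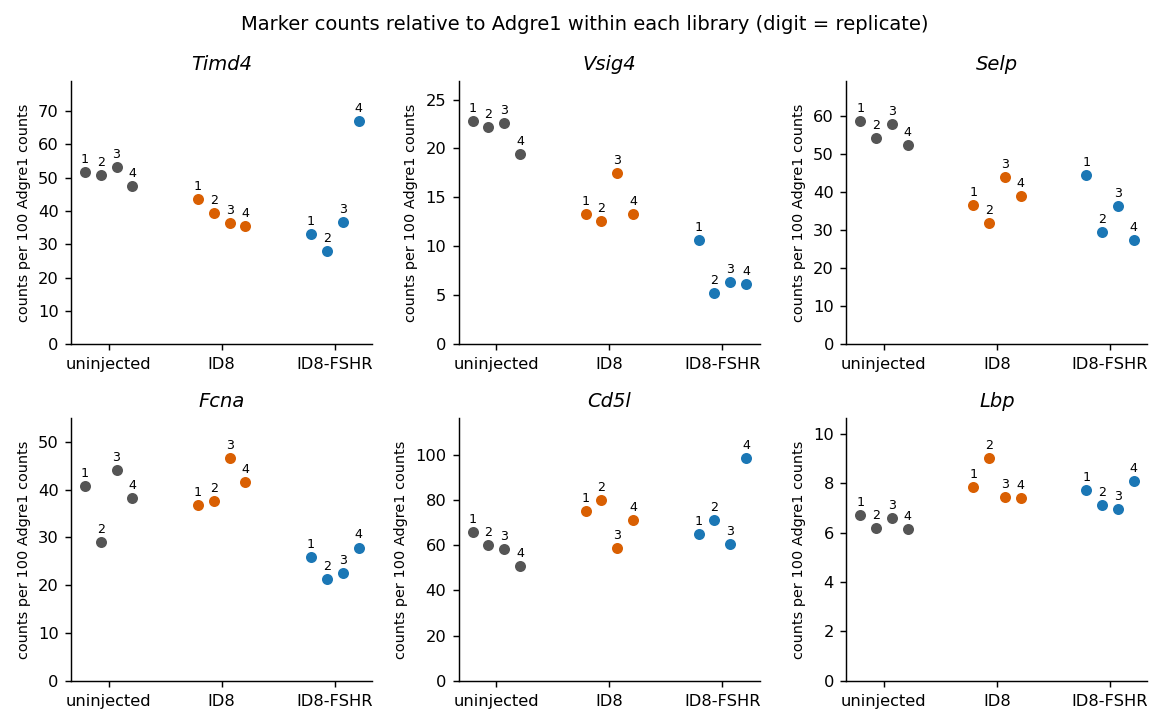
Counts of 6 markers per 100 counts of Adgre1 in the same library (vertical axes, from 0), by group. Each point is a library labelled with its replicate number. For Vsig4 the 3 groups do not overlap (19.4 to 22.8, 12.5 to 17.5 and 5.23 to 10.6), and Timd4 in ID8-FSHR replicate 4 (67.0) exceeds all other libraries.

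The 9 markers did not share 1 pattern. Likeness was measured as the root-mean-square difference of log2(CPM + 0.5), each gene centred on its mean over the 12 libraries, where a smaller value is more alike. Among the markers, the most alike pairs were Adgre1 with Lbp and Cd5l with Lbp (both 0.157), and Vsig4 and Cd5l were farthest apart (0.887). Among 9568 other genes, the patterns nearest to Vsig4 were those of Lyz2 (0.154) and Pltp (0.166), a phospholipid transfer protein. Adgre1 was nearest to Emilin1 (0.0734) and Gusb (0.0985), and Cd5l to Sdc3 (0.0867) and Eng (0.0939). Lbp was nearest to Cd68 (0.0989), a lysosomal protein of macrophages, and Plod3 (0.1005). Selp was nearest to Dpep2 (0.119) and Ank (0.144), Timd4 to Tlr13 (0.143) and Ptpn6 (0.151), and Icam2 to Rab27a (0.106) and AI662270 (0.107). Fcna was nearest to Fcgrt (0.168), the neonatal Fc receptor, and Ninj1 (0.180). For Garnl3, Rpn2 (0.146) was among the 2 nearest. The 12 libraries share the difference between uninjected and tumour lavages, which enters every value of this measure.

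Other genes of large peritoneal macrophages were read from a list of 15. In CPM, 9 fell and 1 rose with ID8, with a median log2 fold change of -1.01. On the pan-macrophage sum without Lyz2, 5 were lower and 4 higher. With ID8-FSHR 9 fell and 3 rose in CPM, with a median of -1.0035, and 7 were lower and 5 higher on the sum without Lyz2. Of the 16915 tested genes, 31.4% fell and 32.7% rose in CPM with ID8, and 30.6% and 33.9% with ID8-FSHR. On the sum without Lyz2, 8839 of them were higher and 1571 lower with ID8, and 8809 and 1631 with ID8-FSHR. Gata6, which encodes the defining transcription factor of these cells, stood at 101 ± 8.85 CPM (SD, n = 4) without injection, 183 ± 6.76 CPM with ID8 and 151 ± 15.9 CPM with ID8-FSHR. It rose in both comparisons (log2 fold change 0.85, edgeR adjusted p = 1.54e-06, and 0.58, adjusted p = 4.84e-05), and was higher under every scaling tried. Gata6 is also expressed outside macrophages, in ovarian surface epithelium among others, and which cells of the lavage held it cannot be told apart here.

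The 8 genes that fell in CPM in both comparisons were Tgfb2 (a TGF-beta ligand), Naip1 (a sensor of bacterial secretion proteins), Alox15 (a lipoxygenase), Prg4 (lubricin), F5 (coagulation factor V), Itga6 (an integrin), Ltbp1 (which binds latent TGF-beta) and Thbs1 (thrombospondin). F5 went from 2469 CPM without injection to 859 with ID8 and 1048 with ID8-FSHR. Prg4 went from 9289 to 3640 and 2906 CPM. Alox15 is also made by eosinophils, whose part in its level was not tested. Of the other 6 eosinophil genes, Epx, Prg2 and Ear1 had at most 8, 20 and 4 counts in any library, whereas Ear2, Ccr3 and Siglecf reached 1271, 910 and 473 counts. Ear2 went from a mean of 21.3 CPM without injection to 16.8 with ID8 and 11.6 with ID8-FSHR, where it passed the test in CPM (edgeR adjusted p = 0.028) but turned positive on the summed pan-macrophage genes (0.54, adjusted p = 0.0624). That call was also lost without any 1 of uninjected replicates 1, 3 or 4 or ID8-FSHR replicates 3 or 4 (adjusted p up to 0.0737). Ccr3 (5.89, 5.31 and 9.40 CPM) and Siglecf (2.13, 2.36 and 4.35 CPM) did not pass it in either comparison, and both were highest in ID8-FSHR replicate 2. Rarb, a retinoic acid receptor, fell with ID8 (-0.83, adjusted p = 0.033), and Cxcl13, a B cell attractant, with ID8-FSHR (-2.89, adjusted p = 0.000558). F10 and Aspa rose with ID8-FSHR (0.53, adjusted p = 0.0453, and 0.80, adjusted p = 0.00544). Summed, the 15 genes stood at 11502 to 13063 CPM in 3 ID8-FSHR libraries and at 5897 CPM in replicate 4, the library of that group in which Timd4 was highest.

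**Figure D5:**
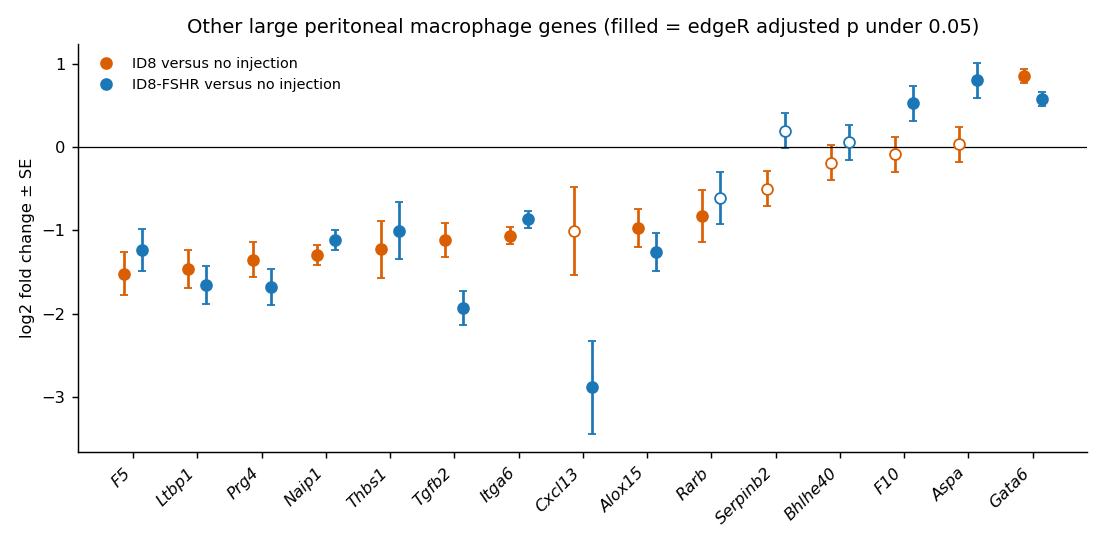
Log2 fold change with its SE (vertical axis) of the 15 other large peritoneal macrophage genes against no injection, in ID8 and ID8-FSHR, on CPM scaled by effective library size. Filled points have an edgeR adjusted p under 0.05. Gata6 lies at 0.85 and 0.58, above the genes that fell on this scale, such as F5 at -1.52 and -1.24.

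Between the tumour lines, 4 of these 15 genes differed in CPM, where 11.6% of all tested genes did. None of the 15 differed without ID8-FSHR replicate 2. With all libraries Tgfb2 (-0.82, edgeR adjusted p = 0.022) and Cxcl13 (-1.88, 0.0413) were lower with ID8-FSHR than with ID8, and Aspa (0.77, 0.0374) and Serpinb2 (0.70, 0.0486) were higher. Gata6 missed the threshold (-0.27, adjusted p = 0.0511). Of 18 transcription factors of resident macrophages, 17 were tested, and Tcf21 had 0 counts in all 12 libraries. In CPM, 8 fell and 4 rose with ID8, against 4 and 7 on the pan-macrophage sum without Lyz2. With ID8-FSHR 6 fell and 3 rose in CPM, against 4 and 6 on that sum, and without replicate 2 the CPM counts were 10 and 4. Of the 16915 tested genes, 31.4% fell and 32.7% rose in CPM with ID8, and 30.6% and 33.9% with ID8-FSHR. On the sum without Lyz2, 1571 of them were lower and 8839 higher with ID8, and 1631 and 8809 with ID8-FSHR. Rxra and Rxrb, partners of the retinoic acid receptors, fell in CPM in both, as did Klf2, Zeb2 and Irf8. Maf rose in both, from 109 CPM to 240 and 154 CPM, and differed between the lines (-0.64, adjusted p = 8e-04). Nr1h3, the liver X receptor alpha and a known activator of Cd5l, rose in both, from 2.78 CPM to 5.83 and 7.39 CPM. Spi1, which encodes PU.1, fell with ID8 (-0.76, adjusted p = 0.00508) and missed the threshold with ID8-FSHR (-0.36, adjusted p = 0.127). Rarb missed it with ID8-FSHR (-0.61, adjusted p = 0.101). Id3 rose with ID8 (0.89, adjusted p = 0.00392) and stood at 0.27 with ID8-FSHR (adjusted p = 0.306).

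Genes of the other lists moved in both directions in CPM. Of all tested genes, 31.4% fell and 32.7% rose with ID8, and 30.6% and 33.9% with ID8-FSHR. Of the 14 pan-macrophage genes 13 fell and Fcgr1 rose with ID8, and 9 fell and Fcgr1 rose with ID8-FSHR, where without replicate 2 12 fell. All 12 B cell genes fell in both comparisons, from a sum of 3055 to 3975 CPM without injection. It was 395 to 565 CPM with ID8 and 342 to 607 CPM with ID8-FSHR. Of 9 T cell genes, 8 fell with ID8 and 2 with ID8-FSHR, and none rose. Of 8 neutrophil genes, 1 fell with ID8, and 1 fell and 1 rose with ID8-FSHR. Of 7 mast cell genes, 4 fell and 1 rose with ID8, and 5 fell and 1 rose with ID8-FSHR. Of 8 dendritic cell genes, 4 fell and 1 rose with ID8, and 4 fell and 2 rose with ID8-FSHR. Of 14 small peritoneal macrophage and monocyte genes, 8 fell with ID8, and 4 fell and 2 rose with ID8-FSHR, where without replicate 2 10 fell and 1 rose. The 2 that rose were Ly6c2, of inflammatory monocytes (6.37 to 23.3 CPM, edgeR adjusted p = 0.00528), and Chil3. Ly6c2 stood at 5.12, 23.3, 17.5 and 47.4 CPM with ID8-FSHR against 4.62 to 7.60 CPM without injection. Its replicate 1 thus lay inside the uninjected range, and replicate 4 was the highest. Chil3 stood at 5.16, 392, 15.2 and 10.1 CPM with ID8-FSHR against 3.76 to 9.65 CPM without injection, so its rise (log2 fold change 4.11, adjusted p = 0.0147) rests on replicate 2. Without that library it was 0.83 (adjusted p = 0.269), and Ly6c2 was the 1 gene that rose. Of 11 tumour and mesothelial genes, 10 rose with ID8 and 9 with ID8-FSHR, and 5 were lower with ID8-FSHR than with ID8. All 10 cell cycle genes rose in both comparisons and were higher with ID8-FSHR than with ID8. Their sum ran from 172 to 264 CPM without injection, 456 to 653 CPM with ID8 and 1413 to 1962 CPM with ID8-FSHR. The part of these other cells in the marker differences was not tested.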

How the data were processed

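Cells from peritoneal lavage were sequenced in bulk from 12 samples in 3 groups of 4, with groups and replicate numbers taken from the labels. RNA was depleted of ribosomal RNA before library preparation, per the labels' protocols. The authors deposited raw read counts per gene. They name bcl2fastq 2.20, STAR 2.7.9a, featureCounts (Subread 1.6.4) and the build GRCm38.p6, per the submitters' processing notes. The sources used here do not give the strand setting, the handling of multimapping reads or the annotation, so counts of overlapping genes are uncertain. Numbers are missing from the ID8-FSHR titles without a stated reason.

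The 9 genes and all gene lists, tests and alternatives were chosen with earlier results of these data known. Counts were fitted in R 4.3.3 with edgeR 4.0.16 (quasi-likelihood, robust, group only, all 12 libraries), TMM scaling and the default filter, which kept 16915 genes. P-values were adjusted over these genes by the Benjamini-Hochberg method, with a threshold of 0.05. CPM are counts scaled to the effective library size. Levels per kilobase use exon lengths of GENCODE M21 (GRCm38), which held 54349 of the 55401 identifiers and all 9 genes. All 153 list symbols matched 1 gene each. Named were all 9 genes, any gene of the 2 lists of large peritoneal macrophage genes and regulators, up to 4 genes of other lists by adjusted p, defining markers near 0, the 2 nearest patterns of each marker, and the label checks. Some genes named by this rule are not reported here. Alternatives were DESeq2 1.42.0, limma-voom (limma 3.58.1), other scalings, filters and thresholds, a replicate block, and leaving out each library. The fit was run on simulated data with 200 changed genes in each comparison. It recovered 22.4% to 31.3% of 1.5-fold changes and 77.3% to 84.8% of 4-fold changes. False calls were 13 of 118 for ID8 against no injection, 7 of 116 for ID8-FSHR against no injection and 7 of 129 between the lines. Far more genes were called in the real data, so these runs do not give the error rate there. No pair of libraries of the same group agreed within sampling noise (lowest chi-square per degree of freedom 15.3). Pairs across groups were not examined. Reads carry no molecular identifiers, so counting limits cover counting error only.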

Additional observations from a re-analysis of the deposited data

Results flagged for a closer look

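In the ID8-FSHR group, Icam2 stood at 262.6 CPM in replicate 2, far from the other 3 libraries of the group (178 to 183 CPM). This is the library with the lowest tumour and mesothelial gene sum of the injected mice (986 CPM). In the ID8 group, Lbp stood at 101.4 CPM in replicate 2, against 66.2 to 70.4 CPM in the other 3. Both were picked out by a gap to the nearest library that is large against the range of the group (Dixon's criterion for 4 values). Of 27 combinations of marker and group examined, 2 were picked out, and the criterion picks about 1 in 20 groups when nothing is unusual.

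The effect of the tumour line on Vsig4 differed between ID8-FSHR and ID8, measured against the same uninjected libraries. The difference was -0.76 on the log2 scale (edgeR adjusted p = 0.0223). It is the direct comparison of the 2 tumour groups, since the uninjected libraries cancel.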

How the results depend on the processing

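Outside the pan-macrophage scalings, 574 recomputed marker values kept their direction and call, 19 gained a call, 25 lost one and 3 changed direction. Scaled to the summed pan-macrophage genes, with ID8 against no injection 5 markers were higher and 0 lower (12334 and 787 of all tested genes), and 6 markers changed direction, to 0.39 for Adgre1, 0.26 for Icam2, 0.68 for Cd5l, 0.70 for Lbp, 0.48 for Fcna and 0.63 for Garnl3. With ID8-FSHR against no injection 7 were higher and 1 lower (13686 and 568 genes), and 8 changed direction, to 0.97 for Adgre1, 0.63 for Timd4, 0.84 for Icam2, 1.29 for Cd5l, 0.26 for Selp, 1.19 for Lbp, 0.32 for Fcna and 1.28 for Garnl3. With ID8-FSHR against ID8 7 were higher and 1 lower (3534 and 190 genes). On the sum without Lyz2, added after seeing the data, 3 markers were lower with ID8 (8839 genes higher, 1571 lower), with Cd5l at 0.15, Lbp at 0.18 and Garnl3 at 0.12. With ID8-FSHR 3 were higher and 3 lower (8809 and 1631 genes), with Adgre1 at 0.0872, Cd5l at 0.39, Lbp at 0.31 and Garnl3 at 0.42, and between the lines 0 were lower (400 and 129 genes). On the geometric mean, also added later, 3 were lower with ID8 (9441 genes higher, 1474 lower), with Cd5l at 0.20, Lbp at 0.24, Fcna at 0.0312 and Garnl3 at 0.17. With ID8-FSHR 3 were higher and 3 lower (9270 and 1561 genes), with Adgre1 at 0.13, Icam2 at 8e-04, Cd5l at 0.44, Lbp at 0.35 and Garnl3 at 0.47, and between the lines 2 were lower (399 and 149 genes). Of the 14 genes in these denominators, 13 fell in CPM with ID8 and 9 with ID8-FSHR, so part of the shift is set by construction. On total counts without TMM, the median of all genes moved to 0.17 with ID8 and 0.20 with ID8-FSHR, with 64.5% and 65.9% of called genes higher. Between the lines that share was 58.2%, against 52.0% with TMM. Cd5l then stood at 0.0445 and Garnl3 at 0.0648 with ID8-FSHR, Garnl3 lost its call with ID8 (-0.29) and Adgre1 its call with ID8-FSHR (-0.25).

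A minimum log2 fold change of 1 left 3 lower markers in each comparison with no injection (3281 genes higher and 2128 lower with ID8, 3343 and 2022 with ID8-FSHR) and 0 between the lines (412 and 260 genes). Between the lines, DESeq2 called 2 markers lower, Vsig4 and Fcna (1473 genes lower). No filter, a fit of only the groups compared (604 genes lower) and an adjusted p under 0.01 (428 genes higher, 279 lower) each called 0. Adgre1 also lost its call with ID8-FSHR under these 3 settings. Cd5l and Lbp passed the threshold with ID8 under limma-voom, under the filter of 1 CPM and with only the groups compared. The cause of these changes was not tested.

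Leaving out each library in turn gave 7 to 9 lower markers with ID8, where 4771 to 5418 of all tested genes were lower. With ID8-FSHR it gave 5 to 6, where 4691 to 5171 of all tested genes were lower. Between the lines it gave 0 to 2 lower and 0 to 1 higher markers, with 555 to 1731 genes higher and 406 to 1405 lower. Between the lines 0 markers were lower without ID8 replicate 3 or ID8-FSHR replicate 3, and 2, Vsig4 and Fcna, without uninjected replicate 2. There, Timd4 was higher without ID8-FSHR replicate 1 (0.39, edgeR adjusted p = 0.0478) and Garnl3 without ID8-FSHR replicate 4 (0.49, 0.0215), and without ID8-FSHR replicate 2 Fcna was called in place of Vsig4. Genes higher and lower numbered 569 and 466 without ID8 replicate 3, 555 and 406 without ID8 replicate 4, and 636 and 553 without ID8-FSHR replicate 4. Without ID8 replicate 1 494 genes were lower, and without ID8-FSHR replicate 1 1731 were higher. Garnl3 with ID8-FSHR against no injection ranged from -0.206 to 0.0066, the latter without ID8-FSHR replicate 4. Adgre1 lost its call there without uninjected replicate 1, 3 or 4 or ID8-FSHR replicate 1, 3 or 4 (adjusted p from 0.0564 to 0.1003). In the comparison of ID8 with no injection, Cd5l passed without ID8 replicate 2, uninjected replicate 4 or ID8-FSHR replicate 1, and Lbp without ID8 replicate 2 or ID8-FSHR replicate 2 or 4.

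Deviations of same-numbered libraries correlated between -0.217 and 0.352, with no common sign, so no pairing by replicate number was seen. With 4 libraries a group this check cannot exclude a pairing. A replicate block gave 9 lower markers with ID8 (Cd5l edgeR adjusted p = 0.0244, Lbp 0.0201), where 5404 of all tested genes were higher and 5177 lower. With ID8-FSHR it gave 6 lower markers, where 5574 genes were higher and 5092 lower. Between the lines it gave 1, with 860 genes higher and 916 lower there. With 4 libraries a group, the spread between libraries limits the precision more than depth does, since the lowest marker level was 51.8 CPM.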
